A study of Solanum lycopersicum with 18 samples.

Results

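Leucine aminopeptidases and threonine deaminases are described here in tomato seeds primed with or without methyl jasmonate (MeJA). The genes were found by their identifiers: LAP-A (Solyc12g010020), LAP-N (Solyc12g010040), TD2 (Solyc09g008670) and TD1 (Solyc10g083760), which are 4 of the 33976 genes in the count and TPM tables. LAP-A and TD2 are the wound-inducible copies, and LAP-N and TD1 the housekeeping copies, of the 2 enzymes. All 4 genes passed the filter on low counts, which kept 19914 genes. The study's annotation gives LAP-A as leucine aminopeptidase A1, LAP-N as leucine aminopeptidase A and TD2 as threonine deaminase. TD2 and, for the copies that are not wound-induced, LAP-N and TD1 are used here as established names that the study's annotation does not give.

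RNA was sequenced from mature seeds of the genotypes Criollo, Stupicke and Micro-Tom. In the MeJA-primed groups 30 seeds per replicate were imbibed for 48 h in the dark in a polyethylene glycol solution of low water potential with 2 mM MeJA, and the mock-primed groups received water in place of MeJA. All seeds, mock included, were thus osmoprimed, and the labels state that they were dried again for 48 h. Each of the 6 groups had 3 biological replicates, and the 18 libraries held 18807673 to 20560261 rounded reads. Replicate 3 of mock-primed Micro-Tom stood apart from its group, with r of 0.927 and 0.937 in log-CPM across genes, where all other pairs of replicates reached at least 0.971. A whole seed contains embryo and endosperm, so a lower transcript level can reflect fewer cells of a type or less RNA per cell, and the 2 cannot be told apart in these bulk samples.

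Leucine aminopeptidases are plastid metallopeptidases that remove amino-terminal residues from proteins and peptides. In tomato leaves LAP-A accumulates after wounding and jasmonate treatment and has been linked to the late wound response, whereas LAP-N is present without wounding. Threonine deaminase converts threonine to 2-oxobutanoate, the first committed step of isoleucine synthesis. The housekeeping enzyme TD1 serves this synthesis and is subject to feedback by isoleucine. TD2 is a jasmonate-induced paralog that is known in tomato leaves for breaking down threonine in the gut of leaf-eating caterpillars. Jasmonate is perceived by the F-box protein COI1, which directs the degradation of repressors of jasmonate-responsive genes.

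MeJA priming was followed by the appearance of both inducible transcripts, which were at or near zero in mock-primed seeds of every genotype. The levels in MeJA-primed seeds differed between genotypes by several fold, with Micro-Tom highest. LAP-N and TD1 were abundant in all 6 groups, and TD1 was lower in Micro-Tom than in the other genotypes. Levels are given as TPM, a unit in which the authors corrected for transcript length and library size.

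LAP-A had 14.14, 17.16 and 10.96 TPM in MeJA-primed Micro-Tom, against 0 TPM in all 3 mock-primed libraries. In MeJA-primed Criollo it had 0.355, 2.92 and 0.401 TPM, again with 0 TPM in the 3 mock-primed libraries. In MeJA-primed Stupicke it had 0.0892, 3.55 and 0.327 TPM, and 0, 0.0296 and 0 TPM in mock-primed Stupicke. The MeJA-primed and mock-primed libraries did not overlap in any genotype, and replicate 2 of MeJA-primed Criollo and of MeJA-primed Stupicke stood above the other 2 libraries of its group.

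In rounded reads LAP-A had 424, 506 and 337 in MeJA-primed Micro-Tom, 12, 99 and 14 in MeJA-primed Criollo and 3, 126 and 11 in MeJA-primed Stupicke. In mock-primed seeds 1 read was found in Stupicke and none in the other genotypes. A sum of 0 reads over a group allows up to 3 reads, and against this floor over the group LAP-A was at least 426-fold higher in MeJA-primed than in mock-primed Micro-Tom. In Criollo it was at least 44.4-fold higher, and at least 13.6-fold without MeJA replicate 2. In Stupicke the ratio of MeJA-primed to mock-primed reads per library size was 139, and its 95% interval from counting error ran between 24.6 and 5541, and 20.7 (3.15 to 876) without MeJA replicate 2. The intervals cover counting error only. The bounds allow for counting error in the mock-primed reads alone and take the MeJA-primed reads as observed. Neither covers the spread between libraries.

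TD2 reached 34.1, 47.7 and 49.9 TPM in MeJA-primed Micro-Tom, against 0.0327, 0.0685 and 0 TPM in the mock-primed libraries. In MeJA-primed Criollo it had 0.636, 2.91 and 0.402 TPM, and 0, 0.0327 and 0 TPM in mock-primed Criollo. In MeJA-primed Stupicke it had 0.0637, 1.76 and 0.127 TPM, and 0 TPM in all mock-primed libraries. As for LAP-A, the groups did not overlap in any genotype and replicate 2 was the highest MeJA-primed library of Criollo and of Stupicke.

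The rounded reads of TD2 were 1006, 1405 and 1545 in MeJA-primed Micro-Tom, against 3 reads in mock-primed Micro-Tom as a whole. Per library size the reads differed 1330-fold, with 95% counting limits at 455 and 6454. In Criollo 20, 92 and 13 reads in MeJA-primed seeds stood against 1 read in mock-primed seeds, a ratio of 133 (23.5 to 5307), or 51.6 (8.64 to 2100) without MeJA replicate 2. In Stupicke MeJA-primed seeds had 2, 58 and 4 reads and mock-primed seeds none. Against the floor of 3 reads TD2 was at least 21.2-fold higher, with the MeJA-primed reads taken as observed. Without MeJA replicate 2 this bound was 2.96-fold, with 6 reads in the remaining libraries.

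**Figure D1:**
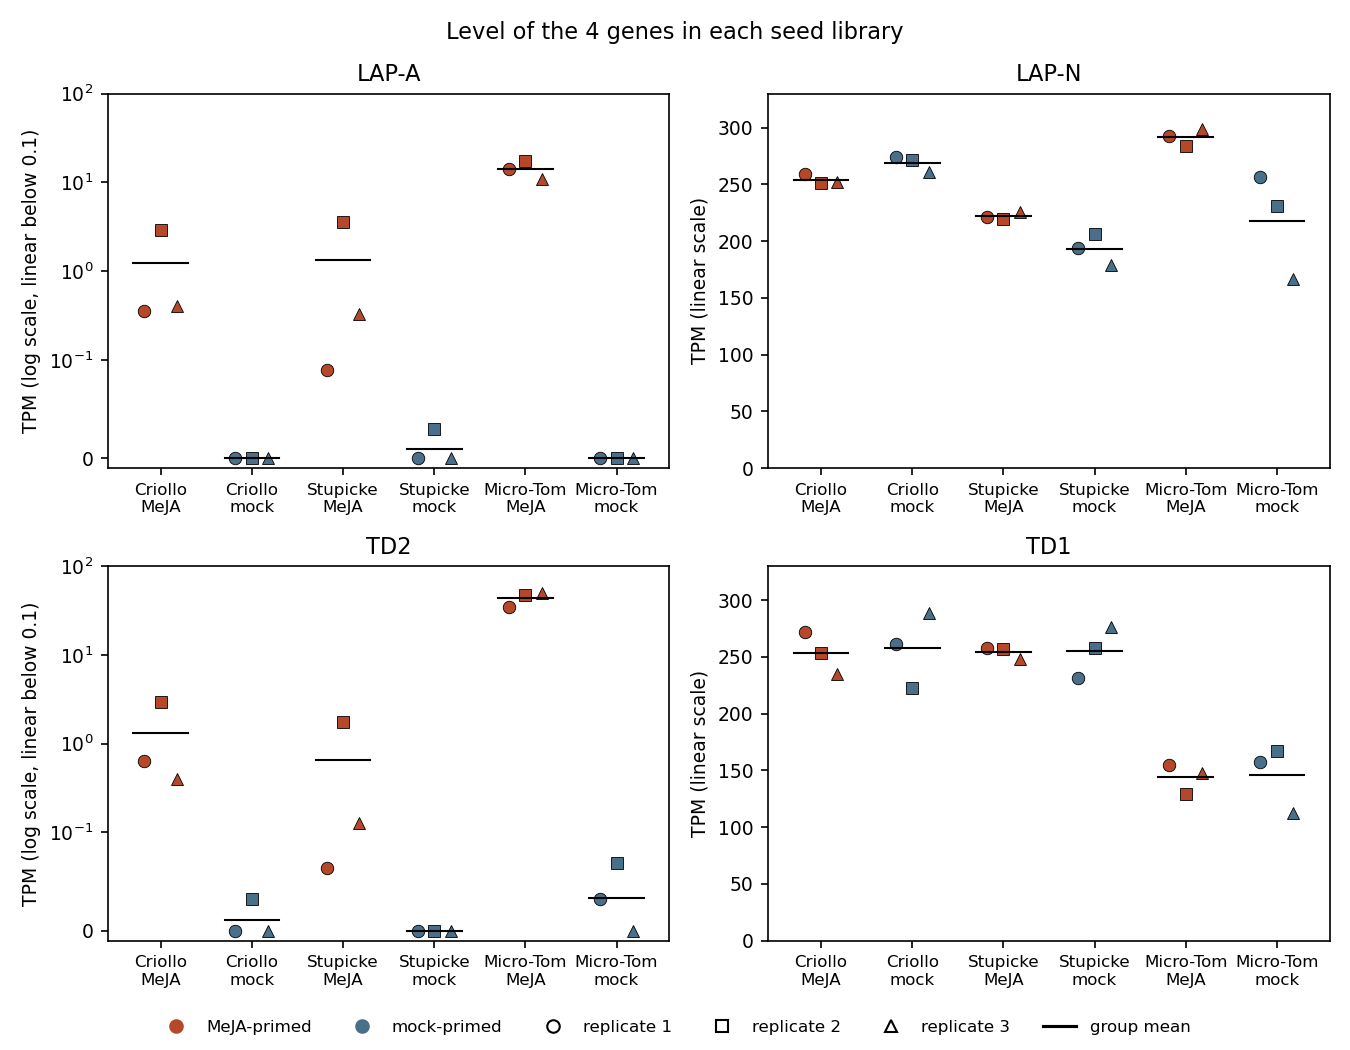
Level of LAP-A, LAP-N, TD2 and TD1 in TPM in each of the 18 libraries, by genotype, with MeJA-primed left of mock-primed; symbols mark replicate numbers and bars the group means (n = 3). The left panels use a log scale that is linear below 0.1 TPM. LAP-A and TD2 are at or near 0 in every mock-primed library and highest in MeJA-primed Micro-Tom, whereas LAP-N stays between 167 and 299 TPM and TD1 between 113 and 288 TPM.

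The MeJA effect was tested with edgeR's quasi-likelihood model on the rounded counts of all 18 libraries, with Benjamini-Hochberg adjustment over all genes tested and a threshold of 0.05. Averaged over the genotypes, LAP-A (edgeR adjusted p = 0.000428), TD2 (3.82e-05) and LAP-N (0.00903) were higher in MeJA-primed seeds, which is 3 of the 4 genes where 8.85% of all genes tested were called higher. In Micro-Tom the same 3 genes were called higher, against a background of 7.98%, with edgeR adjusted p of 0.0033 for LAP-A, 8.16e-05 for TD2 and 0.0169 for LAP-N. In Criollo TD2 alone was called higher, against a background of 3.19% (edgeR adjusted p = 0.0405), and LAP-A did not pass (0.0804). The Criollo call of TD2 was lost in 9 of the 18 fits without 1 library. Among them was the fit without MeJA replicate 2 of Criollo, where the edgeR adjusted p was 0.232. In a later fit without MeJA replicate 2 of both Criollo and Stupicke, TD2 was called in Criollo (log2 fold change 5.21, edgeR adjusted p = 0.00213).

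In Stupicke none of the 4 genes was called by edgeR, where 1.45% of all genes were called higher. The edgeR adjusted p was 0.20 for LAP-A and 0.237 for TD2. At an unadjusted p below 0.05 edgeR had 3 of the 4 genes higher in MeJA-primed Stupicke, where 1452 of 19914 genes passed in either direction. DESeq2 called 2 of the 4 at its adjusted threshold, and limma on log2(TPM + 1) called none. Shares over all genes are given for edgeR only, here and below. The DESeq2 calls were LAP-A (adjusted p = 0.0126) and TD2 (adjusted p = 0.0053). DESeq2 also called LAP-A in Criollo, with an adjusted p of 0.0013.

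The MeJA-primed libraries were then compared between genotypes, since both inducible genes had reads there. LAP-A was 8.52-fold lower in MeJA-primed Stupicke than in MeJA-primed Micro-Tom, a log2 fold change of -3.09 ± 0.97 (SE, edgeR adjusted p = 0.0219). It was 10.2-fold lower in MeJA-primed Criollo than in MeJA-primed Micro-Tom, a log2 fold change of -3.35 ± 0.99 (SE, edgeR adjusted p = 0.018). Both LAP-A calls were lost with DESeq2, with adjusted p of 0.0761 for Stupicke and 0.0596 for Criollo. Both were also lost when single libraries were left out, namely MeJA replicate 1 or 3 of the lower genotype or, for Stupicke only, MeJA replicate 2 of Micro-Tom. In both lower genotypes most LAP-A reads came from MeJA replicate 2. Over the fits without 1 library the log2 fold change ran from -5.83 to -2.53 for Stupicke and from -5.08 to -2.90 for Criollo.

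By fitted fold change Micro-Tom stood further above the other genotypes in TD2 than in LAP-A, a contrast between genes that was not tested. TD2 was 58.4-fold lower in MeJA-primed Stupicke than in MeJA-primed Micro-Tom, with a log2 fold change of -5.87 ± 0.82 (SE, edgeR adjusted p = 7.19e-05). It was 32.0-fold lower in MeJA-primed Criollo than in MeJA-primed Micro-Tom, with a log2 fold change of -5.00 ± 0.77 (SE, edgeR adjusted p = 0.000186). Both TD2 calls held in all 27 alternative fits, but the size of the difference varied. Over the fits without 1 library the log2 fold change ran from -8.7 to -5.3 for Stupicke and from -6.4 to -4.6 for Criollo. Between MeJA-primed Stupicke and MeJA-primed Criollo edgeR called neither LAP-A (log2 fold change 0.26 ± 1.00, SE) nor TD2 (-0.87 ± 0.85, SE). Without MeJA replicate 2 of Stupicke, however, TD2 was lower in Stupicke than in Criollo by a log2 fold change of -3.67 (edgeR adjusted p = 0.0235), and without replicate 2 of both genotypes by -2.28 (edgeR adjusted p = 0.0233).

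In mock-primed seeds the reads of LAP-A and TD2 did not exceed 3 in any group, so no fold between genotypes is given. For the same reason the difference in MeJA response between genotypes, tested as an interaction, had little to rest on for these genes on the count scale. edgeR called none of the 4 genes in any of the 3 interactions, where 0.447% of all genes were called between Stupicke and Micro-Tom, 0.0954% between Criollo and Micro-Tom and 0.0301% between Stupicke and Criollo. At an unadjusted p below 0.05 edgeR had 0, 1 and 0 of the 4 genes in these interactions, where 3035, 1802 and 1554 of 19914 genes passed. DESeq2 called none of the 4, and limma on log2(TPM + 1) called 2, 2 and 0.

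LAP-A and TD2 stood in a ratio that differed between genotypes across the 9 MeJA-primed libraries. The TPM of TD2 divided by that of LAP-A was 2.41, 2.78 and 4.56 in Micro-Tom, 1.79, 0.996 and 1.00 in Criollo, and 0.714, 0.496 and 0.389 in Stupicke. The 3 genotypes did not overlap in this ratio, which in the libraries with few reads carries a large counting error. TD2 was the more abundant of these inducible genes in Micro-Tom and LAP-A in Stupicke. Both genes were highest in Micro-Tom, and within Criollo and Stupicke in replicate 2, but within Micro-Tom replicate 3 had the lowest LAP-A and the highest TD2.

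**Figure D2:**
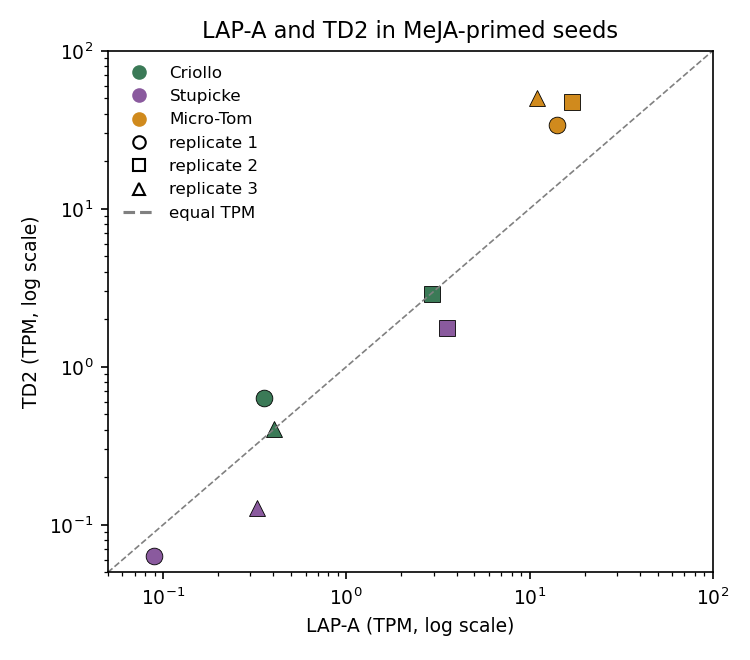
TPM of TD2 (vertical, log scale) against TPM of LAP-A (horizontal, log scale) in the 9 MeJA-primed libraries, with the genotype by colour, the replicate by symbol and a dashed line at equal TPM. The Micro-Tom libraries lie above the line at a ratio of 2.41 to 4.56, those of Stupicke lie below it at 0.389 to 0.714, and replicate 2 of Criollo and Stupicke lies above the other replicates of its genotype on both axes.

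LAP-N, the copy present without wounding, ranked among the most abundant 2.22% to 3.30% of genes with reads in each group. It had 292, 284 and 299 TPM in MeJA-primed Micro-Tom, and 256, 231 and 167 TPM in mock-primed Micro-Tom. In Criollo it had 259, 251 and 252 TPM in MeJA-primed seeds and 274, 271 and 260 TPM in mock-primed seeds. In Stupicke the values were 221, 220 and 226 TPM in MeJA-primed seeds and 194, 207 and 179 TPM in mock-primed seeds. On the TPM scale MeJA-primed and mock-primed libraries did not overlap in any genotype, with MeJA-primed seeds higher in Micro-Tom and Stupicke and lower in Criollo.

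The count-based log2 fold change of LAP-N, MeJA-primed over mock-primed, was 0.33 ± 0.08 for Micro-Tom, 0.21 ± 0.08 for Stupicke and 0.07 ± 0.08 for Criollo (SE), and only the value in Micro-Tom passed edgeR's threshold. The Micro-Tom call was not made in a fit of the 6 Micro-Tom libraries alone (edgeR adjusted p = 0.268) or without MeJA replicate 1 (0.0502) or 3 (0.0669). It was kept without mock replicate 3, the library that stood apart from its group, at a log2 fold change of 0.34 (edgeR adjusted p = 0.00952). In Criollo the direction depended on the scaling: limma on log2(TPM + 1) gave -0.08, where the median of all genes tested was -0.12 on that scale and 0.01 in the count-based fit.

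TD1, the housekeeping threonine deaminase, was abundant in Criollo and Stupicke and lower in Micro-Tom. It had 155, 129 and 147 TPM in MeJA-primed Micro-Tom and 158, 167 and 113 TPM in mock-primed Micro-Tom. In Criollo the values were 271, 254 and 235 TPM in MeJA-primed seeds and 262, 223 and 288 TPM in mock-primed seeds. In Stupicke they were 257, 257 and 248 TPM in MeJA-primed seeds and 232, 258 and 276 TPM in mock-primed seeds. MeJA-primed and mock-primed libraries overlapped in every genotype, and every Micro-Tom library lay below every library of the other genotypes.

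No MeJA effect on TD1 was called in any genotype. Its log2 fold change was 0.12 ± 0.12 for Criollo (SE, edgeR adjusted p = 0.698), -0.00 ± 0.12 for Stupicke (1.00) and -0.10 ± 0.12 for Micro-Tom (0.592). Between genotypes, in contrast, TD1 was 1.92-fold higher in mock-primed Stupicke than in mock-primed Micro-Tom (log2 fold change 0.94 ± 0.13, SE, edgeR adjusted p = 1.24e-05). It was 1.63-fold higher in mock-primed Criollo than in mock-primed Micro-Tom (0.71 ± 0.12, SE, edgeR adjusted p = 0.000266). In MeJA-primed seeds the corresponding differences were 2.06-fold for Stupicke (1.04 ± 0.13, SE, edgeR adjusted p = 9.79e-06) and 1.90-fold for Criollo (0.93 ± 0.13, SE, edgeR adjusted p = 3.58e-05). These 4 calls held in all 27 alternative fits.

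In mock-primed seeds TD1 was the only 1 of the 4 genes called between Stupicke and Micro-Tom, where 28.7% of all genes were called higher in Stupicke. It was also the only one between Criollo and Micro-Tom, where 23.8% were called higher in Criollo. Between mock-primed Stupicke and mock-primed Criollo LAP-N was called lower in Stupicke (log2 fold change -0.22 ± 0.08, SE, edgeR adjusted p = 0.0442), where 21.6% of all genes were called lower. This call did not hold in 13 of the 18 fits without 1 library. In MeJA-primed seeds 3 of the 4 genes were called between Stupicke and Micro-Tom and 3 between Criollo and Micro-Tom, where 44.2% and 39.1% of all genes were called. Between MeJA-primed Stupicke and MeJA-primed Criollo edgeR called 0 of 4, where 22.4% of all genes were called. With an unadjusted p below 0.05 there were 0 of 4, where 6918 of 19914 genes passed. DESeq2 and limma also called 0 of 4.

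Ordered by mean TPM, LAP-N was highest in MeJA-primed Micro-Tom (292 ± 7.57, SD, n = 3), followed by mock-primed Criollo (269 ± 7.27), MeJA-primed Criollo (254 ± 4.08) and MeJA-primed Stupicke (222 ± 3.10). Mock-primed Micro-Tom (218 ± 46.2) and mock-primed Stupicke (193 ± 13.9) came last. The first 4 groups in this order did not overlap with one another, whereas mock-primed Micro-Tom overlapped with the groups on both sides. TD1 averaged 253 ± 18.1 TPM in MeJA-primed and 258 ± 33.1 TPM in mock-primed Criollo, and 254 ± 5.23 TPM in MeJA-primed and 255 ± 22.4 TPM in mock-primed Stupicke, and all neighbours among these overlapped. In Micro-Tom TD1 averaged 144 ± 13.1 TPM in MeJA-primed and 146 ± 28.8 TPM in mock-primed seeds. The highest group mean was 1.51 times the lowest for LAP-N and 1.79 times for TD1, where the median over 19621 genes was 2.01.

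The share of the inducible copy in the summed TPM of its pair sets both copies on 1 scale within each library. In MeJA-primed Micro-Tom TD2 made up 23.4% ± 4.73 of TD2 and TD1 together (SD, n = 3), against 0.0206% ± 0.0205 in mock-primed Micro-Tom. In Criollo TD2 made up 0.513% ± 0.539 in MeJA-primed and 0.0049% ± 0.0085 in mock-primed seeds. In Stupicke it made up 0.253% ± 0.372 in MeJA-primed seeds and was at 0 in mock-primed seeds. Micro-Tom stood apart in the TD pair both by a higher TD2 and by a lower TD1.

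In Micro-Tom LAP-A contributed less to its pair than TD2. It made up 4.62% ± 1.08 of LAP-A and LAP-N together in MeJA-primed Micro-Tom, 0.482% ± 0.578 in MeJA-primed Criollo and 0.592% ± 0.867 in MeJA-primed Stupicke (SD, n = 3). In mock-primed seeds the share was 0 in Micro-Tom and Criollo and averaged 0.0048% in Stupicke.

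The mean MeJA-primed minus mock-primed difference over the genotypes was 8.06 percentage points for the TD pair and 1.90 for the LAP pair. An exact permutation test within genotypes, two-sided, over 8000 arrangements gave p = 0.00025 for each of the 2 pairs, also after adjustment over both, which is the smallest p it can give. Within 1 genotype 3 libraries against 3 cannot go below 0.1. With counts in place of TPM the differences were 6.69 points for the TD pair and 1.79 for the LAP pair, and the exact permutation test again gave p = 0.00025 for both.

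**Figure D3:**
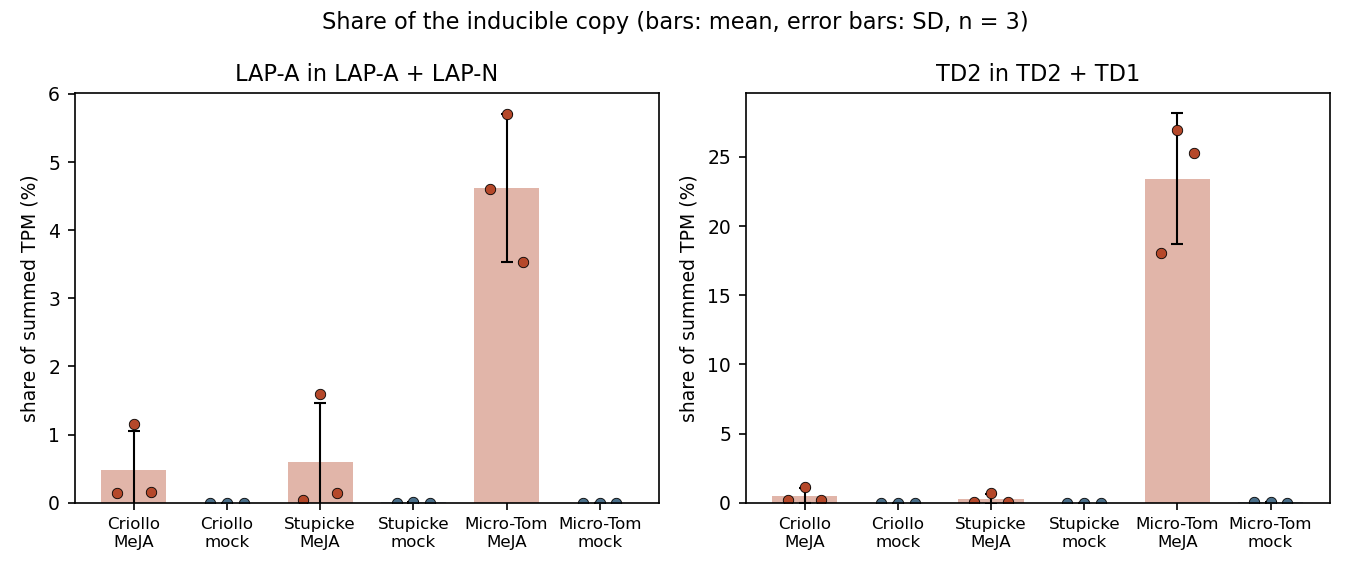
Share of LAP-A in the summed TPM of LAP-A and LAP-N (left) and of TD2 in the summed TPM of TD2 and TD1 (right), in percent, with MeJA-primed left of mock-primed for each genotype. Bars are means, error bars SD (n = 3) and points libraries, and the vertical scales differ. TD2 reaches 23.4% and LAP-A 4.62% in MeJA-primed Micro-Tom, and neither exceeds 1.6% in any library of Criollo or Stupicke.

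Genes with a similar pattern were ranked by Pearson's r of log2(TPM + 1) over the 18 libraries among all genes tested. These correlations are descriptions, since the libraries share groups and the mock-primed libraries all sit near 0 for the inducible genes. Among 19913 other genes TD2 had rank 3 for LAP-A (r = 0.976), and LAP-A had rank 2 for TD2. The first gene for both was Solyc09g084480 (r = 0.986 with LAP-A and 0.995 with TD2), which averaged 88.2 TPM in MeJA-primed Micro-Tom, 2.98 in MeJA-primed Criollo and 1.21 in MeJA-primed Stupicke and was listed at 0 in all mock-primed libraries.

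Solyc03g098720 and Solyc07g064600 were also among the 5 most similar genes of both. Solyc07g064600, annotated as an endoribonuclease of the L-PSP family, averaged 561 TPM in MeJA-primed Micro-Tom, 14.4 in MeJA-primed Criollo and 4.19 in MeJA-primed Stupicke. The remaining place for LAP-A was held by the cathepsin B-like cysteine proteinase Solyc02g069110 (r = 0.967), and for TD2 by serine protease inhibitor 1, Solyc03g098760 (r = 0.972). LAP-A and LAP-N correlated with r = 0.54 and TD2 and TD1 with r = -0.53.

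For LAP-N the most similar genes were Solyc12g005030 (r = 0.940), protein disulfide-isomerase Solyc06g060290 (r = 0.935), Solyc01g060140 (r = 0.927), Solyc11g056650 (r = 0.925) and aspartate aminotransferase Solyc08g068330 (r = 0.924). Protein disulfide-isomerases form and rearrange disulfide bonds of proteins in the endoplasmic reticulum. For TD1 they were Solyc07g065840 (r = 0.979), Solyc08g075560 (r = 0.979), Solyc10g078300 (r = 0.976), Solyc09g059475 (r = 0.976) and Solyc06g075390 (r = 0.975), all lower in Micro-Tom than in the other genotypes by mean TPM. Solyc08g075560 averaged 15.6 TPM in MeJA-primed and 13.1 TPM in mock-primed Micro-Tom, and between 107 and 122 TPM in the other 4 groups.

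The high replicate 2 of LAP-A and TD2 in MeJA-primed Criollo and Stupicke was examined further, a choice made after the values had been seen. In TMM-normalized CPM LAP-A in this replicate was 7.67 times the higher of the other 2 MeJA-primed libraries in Criollo and 11.6 times in Stupicke, and TD2 was 4.87 and 14.7 times. LAP-N (1.03 and 1.04 times) and TD1 (0.982 and 1.09 times) were not raised in it. The 6 genes of the jasmonate list below lay between 0.728 and 1.29 times. The 6 seed genes below lay between 0.851 and 1.89 times in Criollo and between 0.258 and 1.37 times in Stupicke. In both genotypes the vicilin Solyc09g082340 was the highest of them and the caleosin Solyc01g005410 the lowest.

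Replicate 2 was at least 3 times each of the other MeJA-primed libraries in both genotypes in 11 of the 19914 genes tested, which is 0.0552%. The same count was 5 genes for replicate 1 and 25 for replicate 3. The 11 genes included LAP-A, TD2, Solyc09g084480, Solyc03g098720, Solyc03g098760 and Solyc02g069110, which were also among the 5 genes most similar to LAP-A or TD2. Monoterpene synthase 1 (Solyc01g105890), averaging 0.113 TPM in MeJA-primed Criollo and 0.0768 TPM in MeJA-primed Stupicke, was another. Replicate 2 was chosen for its values of LAP-A and TD2, and the similarity ranking used the same libraries. The overlap with the most similar genes therefore follows in part from the choice.

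On chromosome 12 the LAP genes lie close together in identifier order, with Solyc12g010030 between them. Solyc12g010030 had 13, 19 and 12 rounded reads in MeJA-primed Micro-Tom, 7 in MeJA-primed Criollo and 1 each in MeJA-primed and mock-primed Stupicke. Salmon divides reads between similar transcripts, and the estimated reads of LAP-A were not whole numbers in 5 libraries. In all 5 the sum of LAP-A and Solyc12g010030 was whole within 0.01 reads, so the 2 genes shared reads and their separate levels are uncertain. Solyc12g010030 held 3.38% of their summed reads, and summing both genes changed no call of LAP-A. The estimated reads of TD2 in MeJA-primed Micro-Tom, and of LAP-N and TD1 in most libraries, were not whole numbers either. Which transcripts share reads with these genes was not examined. Near TD2, Solyc09g008680 had a mean of 14.0 TPM in MeJA-primed and 12.6 TPM in mock-primed Micro-Tom, and near TD1 the 60S ribosomal protein L24 gene Solyc10g083740 had 311 TPM in MeJA-primed and 437 TPM in mock-primed Micro-Tom.

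Jasmonate synthesis and signalling was followed with 6 genes. These were the synthesis enzymes lipoxygenase D, allene oxide synthase, allene oxide cyclase and 12-oxophytodienoate reductase 3, the receptor COI1, and the bHLH transcription factor annotated as jasmonic acid 3. edgeR called the 4 enzymes and jasmonic acid 3 higher in MeJA-primed than in mock-primed seeds of every genotype, which is 5 of 6 where 3.19% of all genes were called higher for Criollo, 1.45% for Stupicke and 7.98% for Micro-Tom. DESeq2 called 5 of 6 higher in each as well, and limma on log2(TPM + 1) called 4 for Criollo, 3 for Stupicke and 5 for Micro-Tom. The median log2 fold change of the 6 genes was 1.41 for Criollo and 1.25 for both Stupicke and Micro-Tom, beside medians of 0.01, -0.01 and -0.01 over all genes tested. By edgeR 5 of the 6 were lower in mock-primed Stupicke and 4 in mock-primed Criollo than in mock-primed Micro-Tom. Of all 19914 genes tested 6338 and 5217 were lower in these comparisons. In MeJA-primed seeds 6 were lower in Stupicke and 3 in Criollo than in Micro-Tom, where 4488 and 3973 of all genes were lower.

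Allene oxide synthase (Solyc04g079730), which starts the branch to jasmonates, had a log2 fold change of 4.10 ± 0.32 for Criollo (SE, edgeR adjusted p = 9.10e-07), 1.83 ± 0.31 for Stupicke (0.00354) and 3.27 ± 0.30 for Micro-Tom (3.84e-06). Lipoxygenase D (Solyc03g122340) changed by 1.34 ± 0.20 for Criollo, 0.96 ± 0.19 for Stupicke and 1.23 ± 0.19 for Micro-Tom (SE), all called by edgeR. COI1 (Solyc05g052620) was called lower in MeJA-primed Stupicke, with a log2 fold change of -0.46 ± 0.11 (SE, edgeR adjusted p = 0.0491), and was not called in Criollo (-0.11) or Micro-Tom (-0.21). It was also called lower in the mean of the genotypes (-0.26 ± 0.06, SE, edgeR adjusted p = 0.0105). The Stupicke call was not made by limma on log2(TPM + 1), and edgeR called none of the 6 genes in the interactions between genotypes.

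Metabolism around threonine deaminase was followed with 18 genes listed for threonine, methionine, isoleucine, leucine and valine metabolism, of which 16 were tested. The study's annotation names only some of them. In edgeR 2 of 16 were higher in MeJA-primed Criollo, 2 in MeJA-primed Micro-Tom and 1 in MeJA-primed Stupicke, while the mean of the genotypes gave 6. Of all genes tested 3.19% were higher in Criollo, 7.98% in Micro-Tom, 1.45% in Stupicke and 8.85% in the mean. DESeq2 called 4 in Criollo, 4 in Micro-Tom, 1 in Stupicke and 6 in the mean, and limma on log2(TPM + 1) called 1 in Criollo, 2 in Micro-Tom, 1 in Stupicke and 2 in the mean. None of the 16 was lower by edgeR, with or without adjustment at 0.05, nor by DESeq2 or limma. Their median log2 fold change was 0.27 for Criollo, 0.08 for Stupicke and 0.29 for Micro-Tom.

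Methionine gamma-lyase (Solyc08g083110), which releases 2-oxobutanoate from methionine, was called higher in every genotype and was the only gene of this list called in Stupicke. Its log2 fold change was 1.00 ± 0.11 for Criollo (SE, edgeR adjusted p = 5.27e-05), 1.15 ± 0.12 for Stupicke (2.74e-05) and 0.67 ± 0.12 for Micro-Tom (0.00161). Threonine synthase (Solyc03g121910), which makes the substrate of threonine deaminase, was not called in any genotype alone but was higher in the mean of the genotypes, with a log2 fold change of 0.40 ± 0.10 (SE, edgeR adjusted p = 0.0129). Between genotypes 8 of the 16 genes were called higher in mock-primed Criollo than in mock-primed Micro-Tom and 7 higher and 2 lower in mock-primed Stupicke than in mock-primed Micro-Tom by edgeR. Of all genes tested 23.8% were higher in Criollo, and 28.7% were higher and 31.8% lower in Stupicke.

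**Figure D4:**
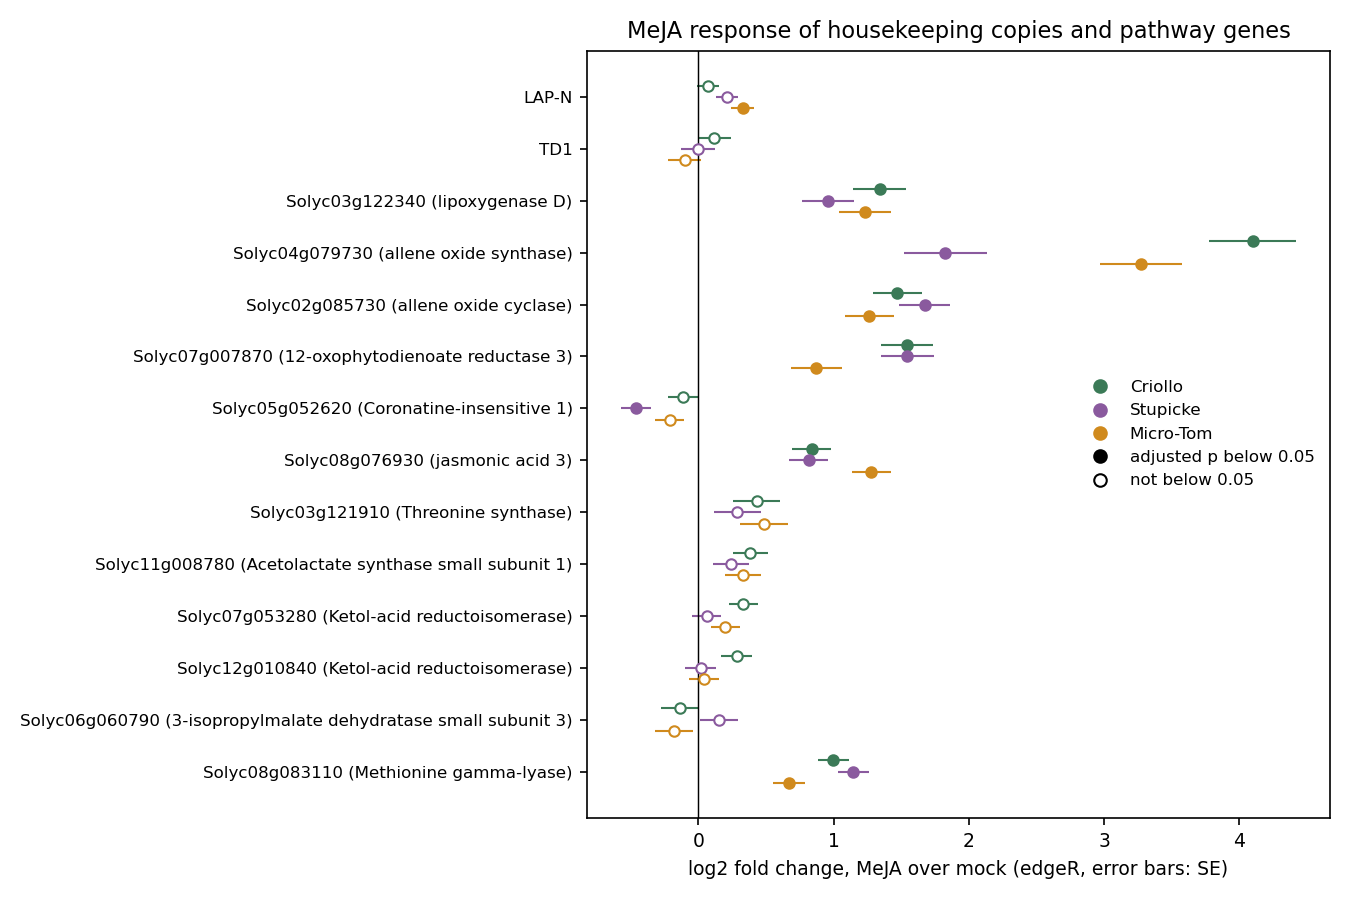
Log2 fold change of MeJA-primed over mock-primed seeds (edgeR, error bars SE) for LAP-N, TD1, the 6 jasmonate genes and the annotated genes of threonine, methionine and branched-chain amino acid metabolism, by genotype in colour. Filled points have an adjusted p below 0.05. LAP-N is filled only in Micro-Tom (0.33) and TD1 in no genotype, the jasmonate genes other than COI1 are filled in all 3, and so is methionine gamma-lyase. LAP-A and TD2 are not drawn because their mock-primed reads are at or near 0.

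The seed identity of the libraries was checked with 6 seed genes (oleosins, a caleosin and vicilins) and 2 chlorophyll a-b binding proteins of green tissue. The seed genes summed to between 3924 and 30440 TPM in every library and the chlorophyll-binding genes to between 1.42 and 8.36 TPM, and none was at 0. The summed seed genes were at 17715 to 20928 TPM in MeJA-primed Micro-Tom and 5511 to 10065 TPM in mock-primed Micro-Tom. In Criollo they were at 7001 to 11753 TPM in MeJA-primed and 3924 to 4972 TPM in mock-primed seeds. In Stupicke they were at 23233 to 30440 TPM in MeJA-primed and 25548 to 28290 TPM in mock-primed seeds. By edgeR 4 of the 6 seed genes were higher in MeJA-primed Micro-Tom and 4 in MeJA-primed Criollo, where 7.98% and 3.19% of all genes tested were called higher. In Stupicke, with 1.45% of all genes called higher, the caleosin Solyc01g005410 was the only one of the 6 called. It was higher in MeJA-primed seeds by a log2 fold change of 2.20 ± 0.45 (SE, edgeR adjusted p = 0.0156). The 2 chlorophyll-binding genes summed to 2.05 to 2.75 TPM in MeJA-primed and 6.30 to 8.36 TPM in mock-primed Criollo, where Solyc02g070940 was called lower (log2 fold change -1.95 ± 0.45, SE, edgeR adjusted p = 0.0197). They summed to 1.42 to 1.69 TPM in MeJA-primed and 2.55 to 4.12 TPM in mock-primed Stupicke, and to 3.62 to 3.70 TPM in MeJA-primed and 3.34 to 7.10 TPM in mock-primed Micro-Tom. The part of these marker genes in the results above was not tested.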

How the data were processed

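The authors sequenced poly(A) RNA as paired-end reads on a BGISEQ-500 and quantified it with Salmon on the transcriptome of SL4.0 with the ITAG4.0 annotation. They deposited expected counts (Salmon's estimated counts per gene, not normalized) and TPM for the same genes and libraries. For this report the expected counts were rounded, and edgeR 4.0.16 was run on them under R 4.3.3: filterByExpr, TMM, 1 mean per group over all 18 libraries, quasi-likelihood tests of 13 contrasts and Benjamini-Hochberg adjustment at 0.05. DESeq2 1.42.0, limma 3.58.1 on log2(TPM + 1) and log2(TPM + 0.1), RLE size factors, no filter, a filter of 10 counts, a replicate block, the 6 libraries of 1 genotype and leaving out each library were alternatives. Leaving out both high replicates, and summing LAP-A with Solyc12g010030, were added after the values had been seen. The tests were tried on simulated counts. An SE beside an edgeR log2 fold change is its absolute value divided by the square root of the quasi-likelihood F statistic.

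Library depth gives a fixed floor, 3 counts over a group at 0, and 95% counting intervals come from exact binomial limits. Text names the 4 genes, 5 most similar genes for each, some of the 3 genes on either side of each and annotated list genes. The members and lists were chosen with earlier results of these data known. SL4.0 coordinates and sequences were not used here. Names other than TD2, LAP-N and TD1 come from the tables of the study.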

Additional observations from a re-analysis of the deposited data

Results flagged for a closer look

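The difference in MeJA response from Micro-Tom was past the threshold for both inducible genes in limma on log2(TPM + 1), and for 1 of the same 4 differences at a pseudocount of 0.1. With limma on log2(TPM + 1), a scale that shrinks changes of low genes, the response of TD2 was lower in Stupicke than in Micro-Tom by a log2 difference of -4.85 ± 0.50 (SE, limma adjusted p = 0.000171) and lower in Criollo than in Micro-Tom by -4.38 ± 0.50 (SE, limma adjusted p = 0.000658). The response of LAP-A differed by -3.0 ± 0.62 between Stupicke and Micro-Tom (SE, limma adjusted p = 0.0335) and by -2.93 ± 0.62 between Criollo and Micro-Tom (SE, limma adjusted p = 0.0489). In all 4 cases every MeJA-primed library of Micro-Tom lay above every MeJA-primed library of the other genotype. With limma on log2(TPM + 0.1) TD2 between Stupicke and Micro-Tom kept its call (-6.34, limma adjusted p = 0.0164), and the calls were lost for TD2 between Criollo and Micro-Tom (-5.14, 0.071) and for LAP-A in Stupicke (-4.51, 0.123) and Criollo (-3.98, 0.322). edgeR did not call the same 4 differences, with adjusted p of 0.972 and 0.833 for TD2 and 0.744 and 1.00 for LAP-A, and the mock-primed reads on which its interaction rests were between 0 and 3 per group.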

How the results depend on the processing

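Of 1215 values recomputed under 30 alternatives, 1106 were counted as unchanged. Counts of called genes were unchanged if within a fixed factor of the main count, and lists of similar genes if at least 4 genes were shared. Fold changes and shares were unchanged if they kept their direction and their side of the threshold. The MeJA effects of LAP-A and TD2 in Micro-Tom and in the mean of the genotypes, the share of each inducible copy (1.71 to 2.08 points for the LAP pair and 7.47 to 8.96 for the TD pair without 1 library), the TD2 differences from Micro-Tom and the TD1 differences from Micro-Tom did so under each alternative run for them, which were 20 for the shares and 27 or 28 for the others. Fitted log2 changes of LAP-A and TD2 against mock-primed seeds depend on the prior count. With DESeq2, LAP-A was called in Criollo (7.96) and Stupicke (7.03) and TD2 in Stupicke (6.86). With the replicate block LAP-A was called in Criollo (8.25), as it was without both high replicates (6.66), and over fits without 1 library it ranged from 6.65 to 8.83. TD2 in Criollo lost its call with limma on log2(TPM + 1) (1.04) and ranged from 5.21 to 8.37 without 1 library. LAP-N in Micro-Tom was 0.34 and not called in the 6 libraries alone, and 0.27 to 0.38 without 1 library. Its mean over genotypes was not called with limma (0.188 and 0.189 with pseudocounts 1 and 0.1) or without both high replicates (0.188).

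With limma at pseudocounts 1 and 0.1, changes near zero turned sign: LAP-N in Criollo (-0.081 and -0.081), TD1 in Criollo (-0.017 and -0.018), its mean (-0.0079 and -0.0079), TD1 between mock-primed Stupicke and Criollo (-0.0082 and -0.0082) and LAP-A between MeJA-primed Stupicke and Criollo (-0.059 and -0.41). TD1 in Stupicke was 0.0008 with the block and 0.0057 in its 6 libraries, and its mean -0.019 without both high replicates, where LAP-A between MeJA-primed Stupicke and Criollo was -0.75. Without 1 library TD1 ranged from -0.080 to 0.10 in Stupicke and from -0.028 to 0.040 in the mean, LAP-N from -0.095 to 0.0058 between mock-primed Stupicke and Micro-Tom, and LAP-A from -2.48 to 1.99 and TD2 from -3.67 to 0.52 between MeJA-primed Stupicke and Criollo.

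Between mock-primed Stupicke and Criollo the number of the 4 genes called was 0 without a filter, with the block and without both high replicates, and 0 to 1 without 1 library. Between mock-primed Criollo and Micro-Tom it was 2 both in DESeq2 and in limma on log2(TPM + 1), and 1 to 2 without 1 library. Between MeJA-primed Stupicke and Criollo it was 1 without both high replicates, and 0 to 1 without 1 library. Over all alternatives it was 2 to 4 between MeJA-primed Stupicke and Micro-Tom and 2 to 3 between MeJA-primed Criollo and Micro-Tom. In the interactions with Micro-Tom limma on log2(TPM + 1) called 2 for Stupicke and 2 for Criollo, and 1 for Stupicke with log2(TPM + 0.1). No source says that a replicate number marks a shared batch, and the deviations of same-numbered libraries correlated with r between -0.22 and 0.30, highest for 2 of the Stupicke pairs, so the replicate block is only an alternative. In the 6 Stupicke libraries alone LAP-A and TD2 did not pass the filter on low counts, so that no value was had. Depth limits LAP-A and TD2 in Criollo and Stupicke, where most MeJA-primed libraries had under 25 reads. With pseudocount 0.1, 4 of the 5 most similar genes were shared for each of the 4 genes.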
